A study of Mus musculus with 4 samples.

Results

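Erythroid cells were taken from a single-cell RNA table of mouse liver tumour tissue as the cells in which the 4 adult globin genes Hba-a1, Hba-a2, Hbb-bs and Hbb-bt together made up at least 2000 of every 10000 unique molecular identifiers (UMIs, which count RNA molecules), and in which Cd3e, Cd79a, Clec4f and Kdr had no UMI. Those 4 genes mark T cells, B cells, Kupffer cells and endothelial cells. The rule chose 182 of 24802 cells, or 0.734% (exact binomial 95% interval 0.631% to 0.848%). The globin values and the 4 absent lineage genes chose the cells and are given as a description. All other genes were measured outside the rule, but the lack of the 4 lineage genes also bears on genes expressed in the same cell types.

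The tissue came from 5-month-old C57BL/6 mice of 2 genotypes, Miz1F/F (2 samples, mice with floxed Miz1 alleles) and Miz1_delta_hep, also written Miz1Δhep (2 samples). All of them had been given diethylnitrosamine (DEN, a liver carcinogen, 25 mg/kg) in week 2 of life and then carbon tetrachloride (CCl4, a liver toxin, 0.5 ml/kg) every week. No source used here gives the Cre line behind the Miz1Δhep genotype or the number of mice per sample. The barcodes of the cells end in 4 suffixes, which define barcode sets 1 to 4 below. Since no source used here links a barcode set to a sample, the genotypes are not compared, no p-values are given and the sets do not serve as replicates.

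Red cells form in bone marrow, and during stress also in spleen and liver, from progenitors that switch on the transcription factors GATA1 and KLF1 and then fill with haemoglobin. Haemoglobin joins alpha and beta globin chains with haem, which is built in a chain of enzymes that begins with ALAS2 and ends with FECH, partly inside mitochondria that import iron for it. Late in the process the nucleus is expelled, organelles are cleared by autophagy and ubiquitin-dependent breakdown, and a reticulocyte with little RNA besides globin mRNA enters the blood. Liver tissue holds blood, so red cells and their RNA are a usual part of a liver cell suspension.

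The promoters of 3 globin genes are shown because globin genes define the cells. That of Alas2 is shown as the promoter of an erythroid marker that the rule did not use. Hbb-bs and Hbb-bt are both shown because they stand next to each other in the beta globin cluster yet gave very different numbers of UMIs. Each sequence is RefSeq's on GRCm38.p6, from 250 bases before to 50 bases after the gene's RefSeq start, read 5′ to 3′ on the gene's strand. Hba-a1 lies at chr11:32283422-32283721 on the plus strand, Hbb-bs at chr7:103827879-103828178 and Hbb-bt at chr7:103813874-103814173, both on the minus strand, and Alas2 at chrX:150547167-150547466 on the plus strand. Capitals mark matches, on either strand, to 4 short motifs. The GATA motif was searched as AGATAA. The CACCC box was searched as CCACACCC in full. The TATA box was searched as TATAAA. The last motif was the pentamer CCAAT.
Hba-a1: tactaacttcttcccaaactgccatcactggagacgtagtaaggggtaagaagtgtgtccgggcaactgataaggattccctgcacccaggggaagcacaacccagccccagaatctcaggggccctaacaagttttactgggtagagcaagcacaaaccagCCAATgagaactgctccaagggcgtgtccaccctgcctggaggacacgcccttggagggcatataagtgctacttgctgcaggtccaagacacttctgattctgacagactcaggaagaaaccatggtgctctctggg
Hbb-bs: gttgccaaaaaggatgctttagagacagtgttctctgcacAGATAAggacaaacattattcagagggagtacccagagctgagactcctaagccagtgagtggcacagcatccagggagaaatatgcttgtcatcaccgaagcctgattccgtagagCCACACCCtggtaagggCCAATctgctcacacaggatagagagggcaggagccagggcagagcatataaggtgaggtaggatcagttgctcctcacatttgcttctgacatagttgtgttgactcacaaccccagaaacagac
Hbb-bt: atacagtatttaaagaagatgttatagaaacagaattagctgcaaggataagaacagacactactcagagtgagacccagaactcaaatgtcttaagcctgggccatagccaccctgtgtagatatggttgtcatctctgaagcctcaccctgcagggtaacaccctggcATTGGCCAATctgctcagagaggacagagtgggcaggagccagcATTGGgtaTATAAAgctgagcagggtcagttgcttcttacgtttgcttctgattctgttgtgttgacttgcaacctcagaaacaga
Alas2: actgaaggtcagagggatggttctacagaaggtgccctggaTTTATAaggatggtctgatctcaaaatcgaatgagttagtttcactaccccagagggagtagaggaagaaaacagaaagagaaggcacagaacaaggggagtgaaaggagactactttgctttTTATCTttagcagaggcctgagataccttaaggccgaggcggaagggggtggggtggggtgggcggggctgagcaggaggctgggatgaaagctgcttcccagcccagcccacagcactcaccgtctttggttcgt
The Hbb-bs window held all but the TATA letters, with the GATA motif starting 210 bases, the CACCC box 93 bases and the pentamer 76 bases before the start. In Hbb-bt, the TATA letters lay 28 bases before the start and the pentamer matched 3 times, in part back to back, whereas the other motifs were not among its letters. The Hba-a1 window held the pentamer at 88 bases, and the Hba-a2 window, not printed, held it at 91 bases before the start. Alas2 held the GATA motif on the opposite strand at 86 bases and reversed TATA letters at 209 bases. Among 27025 RefSeq promoter windows of the same length, the GATA motif was found in 11.41%, the CACCC box in 3.57%, the TATA letters in 14.16% and the pentamer in 37.92%. These matches describe letters and were not tested as binding sites.

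Globin dominated the RNA of the chosen cells. They held 845052 UMIs, of which 610411 (72.2%) were adult globin, and they carried 63.7% of all globin UMIs in the table. A cell held a median of 3863.5 UMIs, of which a median of 465.5 were not globin, and a median of 290 genes with a range from 201 to 3234. The other cells had a median of 1512 UMIs, 717 genes and 8.53 globin UMIs per 10000.

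The globin share differed between the barcode sets. Sets 1 to 4 held 23, 23, 34 and 102 of the cells, or 0.894%, 0.370%, 0.705% and 0.912% of each set. The median globin share was 8661 per 10000 in set 1 and 8815 in set 4, against 4327 in set 2 and 4418 in set 3. All 50 cells with at least 9000 globin UMIs per 10000 came from sets 1 and 4, with 7 and 43 cells. The non-globin RNA did not follow the same order: its median was 1165 UMIs in set 1, 637 in set 2, 940 in set 3 and 377 in set 4.

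**Figure D1:**
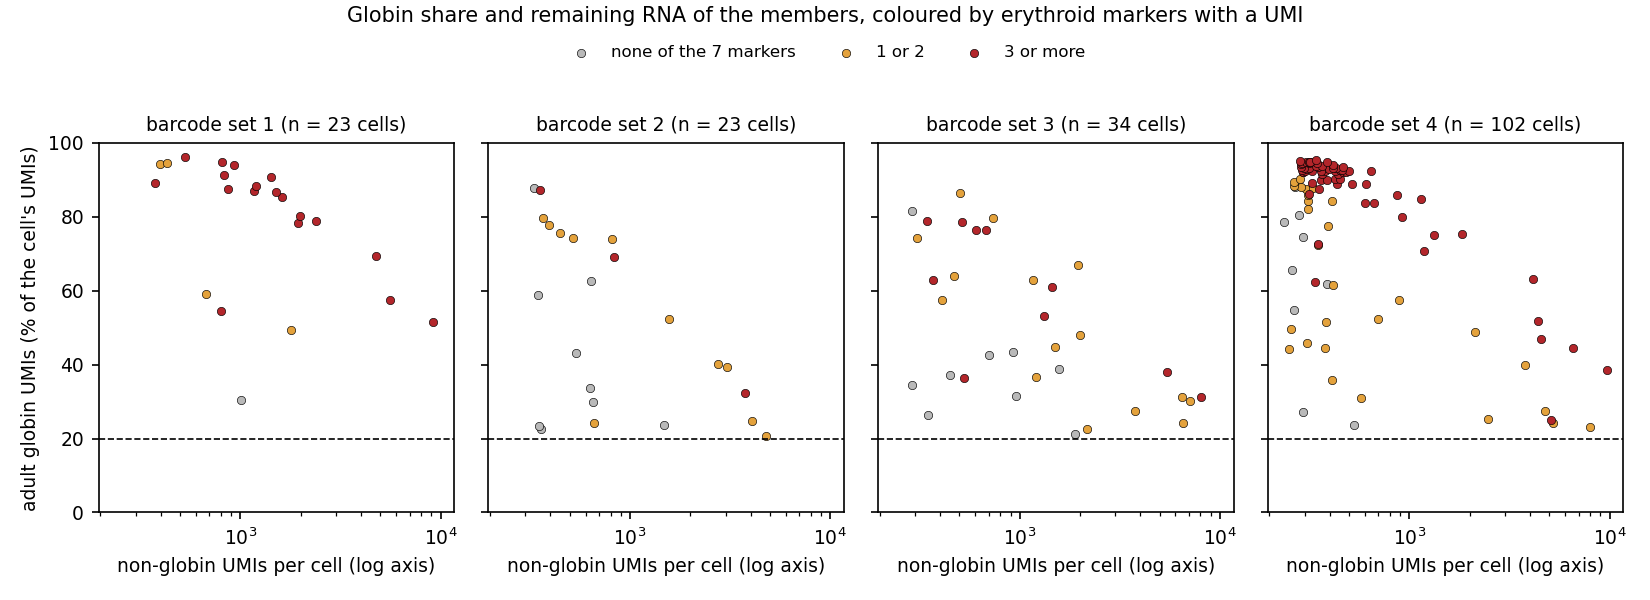
Adult globin UMIs as a percentage of all UMIs (y axis) against non-globin UMIs on a log axis (x axis), 1 point per cell and 1 panel per barcode set, coloured by how many of 7 erythroid markers have a UMI. The dashed line is the rule's threshold of 2000 per 10000; cells of sets 1 and 4 crowd near the top, and cells of sets 2 and 3 spread down to the line.

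Around the threshold the values formed no gap. The lowest cells inside had 2069 and 2117 globin UMIs per 10000, and the highest cells without a lineage gene outside had 1936 and 1908. Between 2000 and 3000 there were 19 chosen cells, of which 11 had an Alas2 UMI. Between 1000 and 2000, 14 cells met the lineage condition, and 3 of these had an Alas2 UMI. A further 94 cells had a globin share of at least 2000 and were left out by a lineage gene: Cd79a was present in 62, Kdr in 21, Clec4f in 13 and Cd3e in 6. They were 34.1% of the cells past the threshold, whereas 53.3% of cells under it had a lineage gene.

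Among the globin genes, Hbb-bs, the major adult beta globin, gave 48.6% of the adult globin UMIs, and Hbb-bt, the second adult beta gene, gave 9.03%. The alpha globins Hba-a1 and Hba-a2 gave 24.7% and 17.7%. Reads from these pairs can be hard to tell apart: of 303 windows of 98 bases in the last 400 bases of the Hba-a1 transcript, 205 occur unchanged in Hba-a2, and 144 of 303 in Hbb-bs occur in Hbb-bt. No such window of Hba-a1 occurs in Hbb-bs, so the sum of alpha against the sum of beta is the firmer measure. The split within each pair is uncertain.

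The ratio of alpha to beta UMIs in the chosen cells was 0.819 in set 1, 0.756 in set 2, 0.761 in set 3 and 0.688 in set 4. In cells with under 100 globin UMIs per 10000, which are mostly other cell types, it was 0.607, 0.472, 0.447 and 0.441. The chosen cells had a higher ratio than these cells in each of the 4 sets, and the ranges over sets did not overlap. In cells with 100 to 2000 globin UMIs per 10000 the ratio was 0.492, 0.820, 0.650 and 0.787. It was above that of the chosen cells in sets 2 and 4. Cells past the threshold that carried a lineage gene had ratios of 0.777, 0.734, 0.732 and 0.752, inside the range of the chosen cells. Hbb-bs made up 44.6% to 50.9% of the globin UMIs in the chosen cells and 52.9% to 61.1% in the cells with little globin. Hbb-bt varied more by set than by group, from 6.06% in set 2 to 10.4% in set 1 in the chosen cells and from 6.88% to 9.34% in the cells with little globin. No test was run on these ratios, since globin UMIs of one set share their library.

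**Figure D2:**
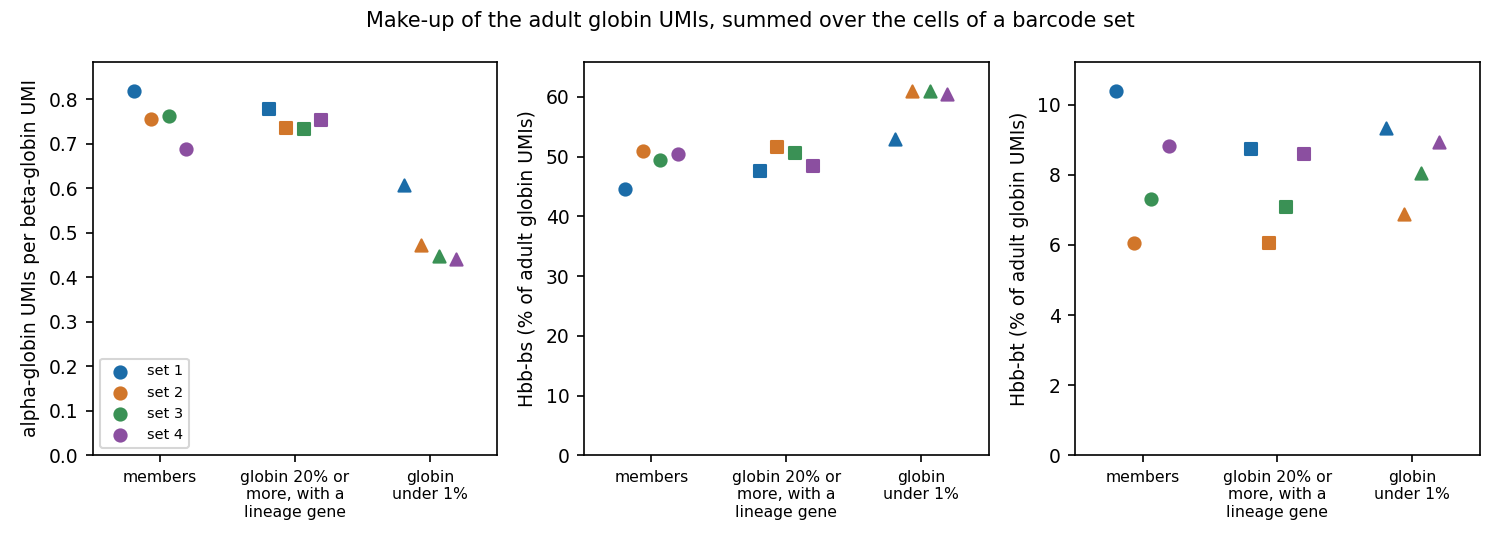
Make-up of the adult globin UMIs summed over cells, with 1 point per barcode set, for the chosen cells (members), for cells past the same globin threshold with a lineage gene, and for cells with under 100 globin UMIs per 10000 (under 1%). The y axes show alpha UMIs per beta UMI, Hbb-bs and Hbb-bt as a percentage of adult globin UMIs; the alpha to beta ratio of the cells with little globin lies between 0.441 and 0.607, under all points of the other groups.

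Within the chosen cells, the ratio spanned from 0.419 in a cell of set 2 to 2.33 in a cell of set 4, with set medians between 0.717 and 0.838. The minor alpha-like genes Hbq1a and Hbq1b, which lie in the alpha globin cluster, gave 12 and 19 UMIs in all. Both were found in few cells, 9 and 14. The other cells together had 0.185 CPM of the pair, in UMIs per 1000000 non-globin UMIs. Embryonic globin genes were not analysed here.

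How far the label of erythroid cells holds was read from 7 markers that the rule did not use. Among these were Alas2, the erythroid aminolevulinate synthase; Slc4a1, the anion exchanger band 3; Bpgm, which makes 2,3-bisphosphoglycerate; and the transcription factors Klf1 and Gata1. At least 3 of the 7 had a UMI in 96 of 182 cells (52.7%), 1 or 2 in 58 cells, and none in 28 cells. Under 1000 globin UMIs per 10000, 0 of 24496 cells had 3 or more. The split at 3 markers was chosen after values were seen.

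The markers divided the sets. At least 3 were found in 18 of 23 cells of set 1 and 65 of 102 cells of set 4, but in 3 of 23 cells of set 2 and 10 of 34 cells of set 3. No marker at all was found in 1, 9, 9 and 9 cells of sets 1 to 4. The label is therefore borne by the markers for most cells of sets 1 and 4, and for a minority of the cells of sets 2 and 3. The median cell had 1165, 637, 940 and 377 non-globin UMIs in sets 1 to 4, which was not the order of the sets by markers. With globin included, the medians were 9934, 1940, 2570.5 and 4359.5 UMIs, which was their order by markers. The part of depth in the marker split was not tested. Within sets 2 and 4, cells with at least 3 markers had higher median non-globin UMIs than cells with none, at 835 against 535 and 388 against 280, while in set 3 it was 641 against 700. Since the markers do not bear the label for every cell, the cells are called globin-high cells from here on.

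**Figure D3:**
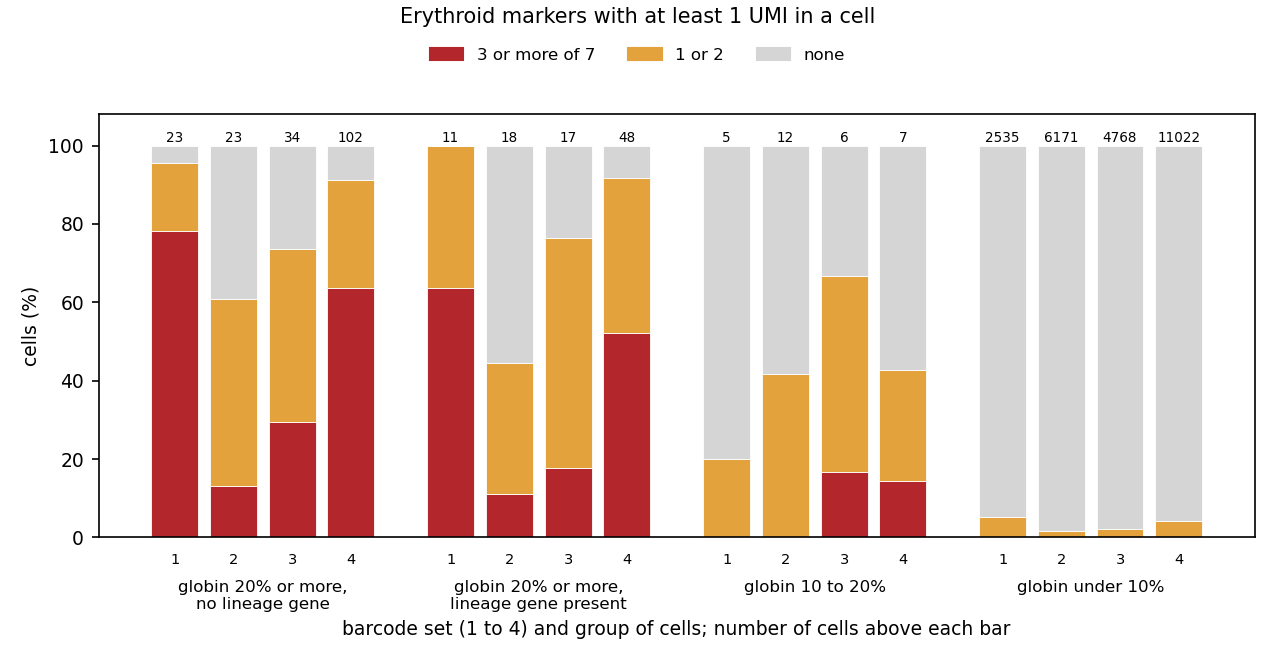
Percentage of cells (y axis) with none, 1 or 2, or at least 3 of the 7 erythroid markers, by barcode set 1 to 4 within each of 4 groups of cells, with the number of cells above each bar. Among the globin-high cells the share with at least 3 markers was 78.3% in set 1 and 63.7% in set 4, against 13.0% in set 2 and 29.4% in set 3; under 1000 globin UMIs per 10000 it was 0 in every set.

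Alas2 was detected in 143 of 182 globin-high cells, or 78.6% (exact 95% interval 71.9% to 84.3%), at a median depth of 465.5 non-globin UMIs. In B cells carrying Cd79a alone of the 4 lineage genes, Alas2 was found in 0.435% of 6431 cells at a median of 1424 non-globin UMIs, a background level for a cell type that should lack it. With every cell brought to 190 non-globin UMIs, the shares were 57.5% and 0.0441%. By set, Alas2 was present in 22 of 23, 10 of 23, 22 of 34 and 89 of 102 globin-high cells. Bpgm was detected in 103 cells and Slc4a1 in 24.

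Set against globin rather than against other RNA, Alas2 gave 22.4 UMIs per 10000 globin UMIs in the globin-high cells of set 1 and 21.6 in set 4, but 6.76 in set 2 and 10.3 in set 3. In all other cells under the threshold the same quantity was 23.3, 7.68, 6.07 and 26.6 in sets 1 to 4, from 31, 15, 12 and 89 Alas2 UMIs. Sets 1 and 4 were the high sets in both groups of cells. Whether this difference follows the mice, the genotype or the handling of a sample cannot be told apart, since sets are not tied to samples.

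Levels of all other genes are given as CPM, the UMIs of a gene per 1000000 non-globin UMIs, averaged over cells. Globin UMIs are left out of the total because they would otherwise lower the share of every other gene. The log2 ratio compares globin-high cells with all other cells of the same set after adding 10 CPM to both levels. A gene is called higher or lower when it differed at least 2-fold in the same direction in every set. Of 5439 genes with a level of at least 20 CPM, 24 were higher (0.441%) and 97 were lower (1.78%). Some of the 24 rested on few molecules in a set. Cdr2 had 1 UMI in set 2, Slc25a39 had 2 in set 2, and Ube2c had 2 in each of sets 2 and 3. Over all sets, 23 of the 24 had at least 10 UMIs, and the smallest number was 4. The median gene had a log2 ratio of −0.46, and −0.93, −0.35, −0.19 and −0.39 in sets 1 to 4, so list medians are read against these values. Counts of genes called in a list are read against the shares of 0.441% higher and 1.78% lower. Lists were fixed with earlier results of these data known, and no list was tested.

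Haem synthesis genes were led by the first and the last enzyme of the pathway. Of 8 genes, Alas2 and Fech were higher in every set (against 0.441% of all genes). None was lower (against 1.78%), and the list's median log2 ratio was 1.03. That median was 0.77, 2.44, 2.39 and 0.54 with set 1, 2, 3 or 4 left out. Alas2 averaged 14717, 1130, 1849 and 16566 CPM in the globin-high cells of sets 1 to 4, against 42.0, 5.56, 8.05 and 33.0 CPM in the other cells, a median log2 ratio of 7.42. Among the globin-high cells, the means of sets 1 and 4 stood about an order of magnitude above those of sets 2 and 3. These are means over cells: 143 of the 182 had an Alas2 UMI, and the median cell of set 2 had 0 CPM. Per cell, Alas2 ranged from 0 to 45369 CPM in set 1 and from 0 to 65625 CPM in set 4.

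Fech, the ferrochelatase that inserts iron into the haem ring, averaged 2222, 272, 449 and 1597 CPM in the globin-high cells and 16.9, 39.1, 24.3 and 28.9 CPM in the others, with a median log2 ratio of 4.55. The enzymes between them split by set. Urod, a decarboxylase of the pathway, averaged 788 and 284 CPM in sets 1 and 4, but had no UMI in sets 2 and 3. A count of 0 allows up to 101.1 CPM in set 2 and 47.6 CPM in set 3 (3 UMIs per set), above the 16.6 and 19.6 CPM of the other cells there, so a lower level was not detectable. Alad, Uros, Cpox and Ppox gave 33, 8, 31 and 15 UMIs in all, and none of them was called. The list's median was 4.04 in set 1 and 2.39 in set 4, against −0.09 and −0.46 in sets 2 and 3.

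Genes for mitochondrial iron import and iron-sulphur clusters showed a similar pattern. Of 7 genes that passed, Slc25a37 and Slc25a39 were higher in every set (against 0.441% of all genes) and none was lower (against 1.78%). Slc25a37, mitoferrin 1, which brings iron into the mitochondria of erythroid cells, averaged 1351, 232, 242 and 1135 CPM in the globin-high cells against 20.5, 42.7, 33.6 and 22.6 CPM in the others, a median log2 ratio of 3.83. Slc25a39, a mitochondrial glutathione carrier, averaged 1461, 188, 199 and 347 CPM against 43.5 to 66.3 CPM. Glrx5 and Iscu, both of iron-sulphur cluster assembly, had median log2 ratios of 0.82 and 1.85 and were not called. The list's median was 1.79, and it was −0.70 when globin was kept in the total, so the direction of the list depends on that choice.

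Iron uptake and storage genes had a median over genes of −0.57, near that of all genes. None of 6 genes was called higher (against 0.441% of all genes) or lower (against 1.78%). The ferritin subunits Fth1 and Ftl1 were the most abundant of them. Ftl1 was the steadiest, with log2 ratios from 0.62 to 0.83 over the sets. Fth1 averaged 22225, 5001, 6612 and 7405 CPM in the globin-high cells against 11940, 4475, 3914 and 7187 CPM in the others. Ncoa4, the receptor that sends ferritin to breakdown, averaged 938 CPM in set 4 against 62.8 CPM in the other cells there, but its log2 ratios were −0.17, −1.38 and −1.09 in sets 1 to 3. Tfrc, the transferrin receptor of young erythroid cells, had 21 UMIs in 8 cells, and it is named after its values were seen.

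Membrane and skeleton genes again separated sets 1 and 4 from sets 2 and 3. Of 18 genes that passed, 2 were higher in every set (against 0.441% of all genes) and none was lower (against 1.78%). The list's median was 1.12. Epb41, which encodes the skeleton protein 4.1R, was higher in every set, at 1029, 746, 508 and 954 CPM against 38.8 to 96.6 CPM in the other cells. Cd24a, a surface glycoprotein of young red cells, had log2 ratios from 0.40 to 5.21, and Cd47, the signal that protects red cells from phagocytosis, had log2 ratios of 0.22, 0.41 and 0.60 outside set 1. Slc4a1 gave 43 UMIs in set 1 and 33 in set 4, but 0 in set 2 and 1 in set 3. The list's median was 4.10 and 2.27 in sets 1 and 4, and it was −0.02 and 0 in sets 2 and 3.

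Of the genes for gas exchange and protection from oxidation, 9 passed, and Bpgm was higher in every set (against 0.441% of all genes). None was lower (against 1.78%), and the list's median was 2.40. Bpgm, whose product loosens the hold of haemoglobin on oxygen, averaged 7168, 327, 456 and 7336 CPM against 22.4, 7.34, 9.76 and 23.5 CPM in the other cells. Prdx2, the peroxiredoxin of red cells, averaged 7373, 265, 365 and 4927 CPM, with log2 ratios of 5.29, 0.98, 1.17 and 4.50. It narrowly missed the 2-fold rule in set 2. Gpx1, glutathione peroxidase, had log2 ratios from 0.90 to 3.89. Car2, a carbonic anhydrase, reached 8293 CPM in set 1 and 2307 CPM in set 4, but 65.1 and 19.7 CPM in sets 2 and 3, where the other cells had 20.3 and 24.5 CPM.

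Genes of organelle clearance and ubiquitin had a median of 1.65. Of 15 that passed, Gabarapl2, Ube2l6 and Mkrn1 were higher in every set (against 0.441% of all genes) and none was lower (against 1.78%). With globin kept in the total the list's median was −0.41. Ube2l6, a ubiquitin and ISG15 conjugating enzyme, averaged 9010, 486, 438 and 3974 CPM against 46.1, 19.2, 18.6 and 50.3 CPM in the other cells. Mkrn1, a ubiquitin ligase, averaged 11946, 599, 586 and 5131 CPM against 64.9 to 142 CPM. Bnip3l, the mitophagy receptor also called NIX, had log2 ratios of 4.14, 1.51, 0.61 and 4.45. Ubb, a polyubiquitin gene, averaged 26397 and 18978 CPM in sets 1 and 4, against 2790 and 2638 CPM in the other cells there. In sets 2 and 3 its log2 ratios were 0.47 and 0.27.

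Late erythroid transcripts had the largest median and the most genes called of the lists. Of 12 that passed, 8 were higher in every set, where 0.441% of all genes were, and the median was 4.16. By set the median was 6.34, 2.77, 2.71 and 5.38. Among the 8 were Bpgm, Mkrn1, Ube2l6, Slc25a37, Fech and Fam46c, several of which other lists share. Fam46c, which encodes a poly(A) polymerase, had 145 UMIs in 84 cells and a log2 ratio of 4.12, and it is named here after its values were seen.

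**Figure D4:**
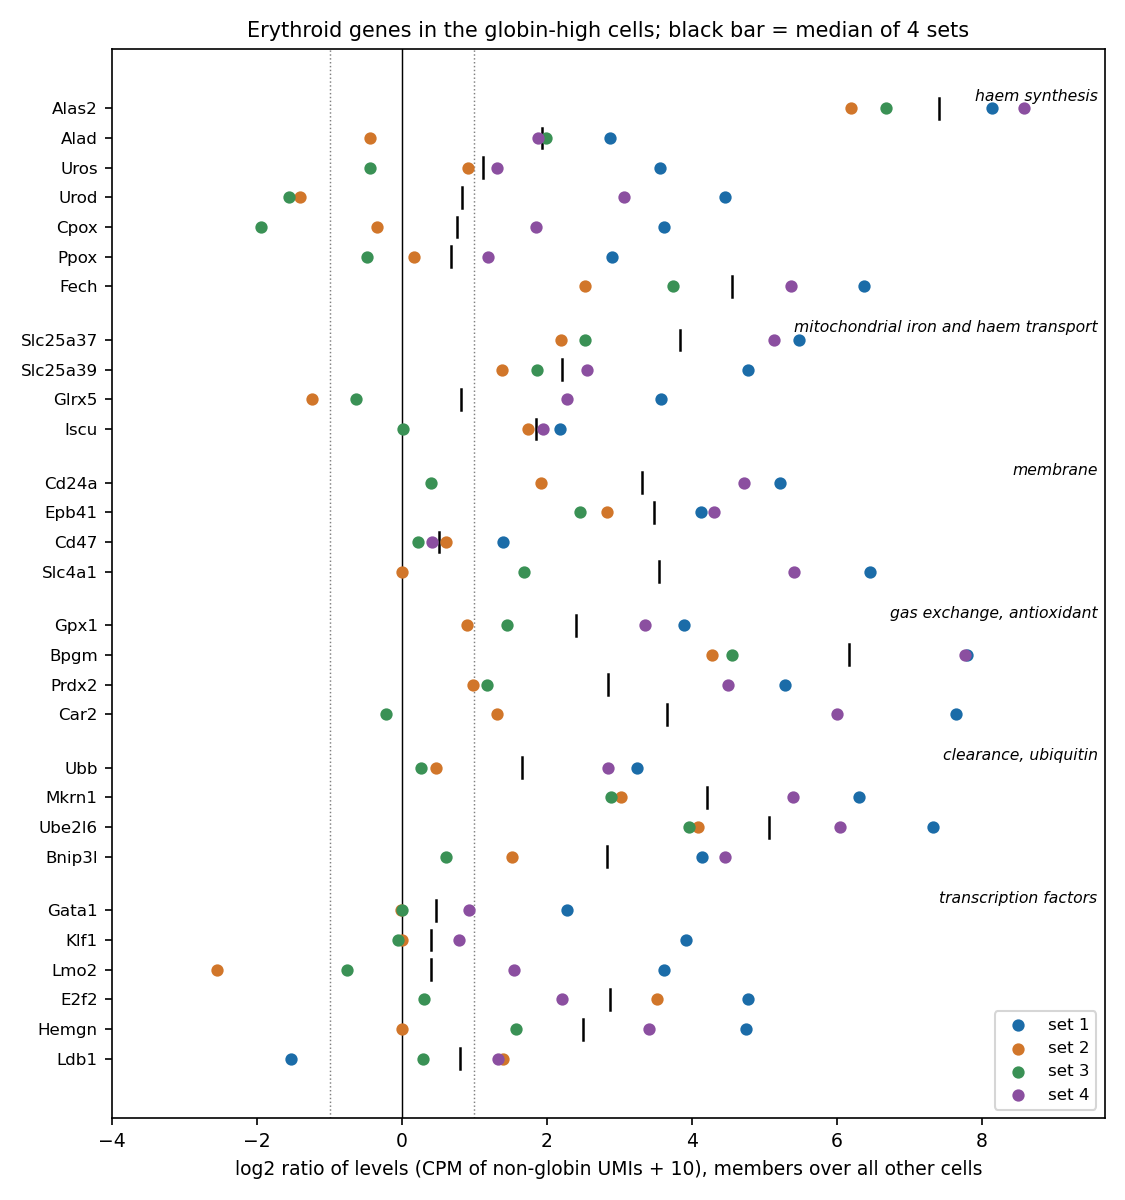
Log2 ratio of levels (CPM of non-globin UMIs plus 10) in globin-high cells (members) over all other cells (x axis), with 1 point per barcode set and the median as a black bar, for the haem, iron, membrane, gas exchange, clearance and transcription factor genes described in the text. Dotted lines mark 2-fold; Alas2, Fech and Bpgm lie beyond it in every set, while Urod lies beyond 2-fold higher in sets 1 and 4 only.

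Transcription factors of erythroid commitment gave few UMIs. Of 12 that passed, none was called higher (against 0.441% of all genes) or lower (against 1.78%), and the median was 0.24. Klf1 had 14 UMIs in 4 cells and Gata1 had 5 UMIs in 4 cells. Set 1 held 10 of the Klf1 UMIs and 2 of the Gata1 UMIs, and set 4 the other 4 and 3. In set 1, Klf1 averaged 156 CPM and Gata1 42.1 CPM, against 0.969 and 0.758 CPM in the other cells there. Pooled over all sets, Klf1 stood at 59.7 CPM, against 0.248 CPM in the cells under the globin threshold. Gata1 stood at 21.3 CPM against 0.093 CPM. Both were thus above the other cells in pooled level, but from few cells and from sets 1 and 4 only. Gata2, the factor of early progenitors, and Gfi1b had no UMI, which at this depth allows up to 12.8 CPM over all the cells. Gata2 stood at 7.82 CPM in the other cells, so its lack was not detectable as a difference. E2f2, a cell cycle factor of late erythroblasts, had 28 UMIs in 14 cells and log2 ratios of 4.77, 3.52, 0.30 and 2.21. Hemgn, an erythroid nuclear protein, had 40 UMIs in 9 cells, 27 of them in 1 cell. Lmo2 and Ldb1, partners of GATA1 in one complex, had 43 and 12 UMIs and log2 ratios of both signs.

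Early erythroid and progenitor genes had a median of 0.02. None of 8 was called higher (against 0.441% of all genes) or lower (against 1.78%). Kit, the stem cell factor receptor, had 7 UMIs and Myb had 2. Ctse, a protease expressed in erythroblasts, had 33 UMIs in 10 cells and averaged 719 CPM in set 1. Of the genes for erythropoietin and stress signalling, 4 passed, with a median of −0.34. None of these was called higher (against 0.441% of all genes) or lower (against 1.78%). Pim1, a kinase induced by cytokine signals, averaged 1403, 874, 698 and 449 CPM against 609, 673, 766 and 559 CPM. Stat5b was at 5 UMIs. Epor, the erythropoietin receptor, did not pass the filter with its 4 UMIs.

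Division genes had a median of 0.26. Among 13 that passed, Ube2c alone was higher in every set (against 0.441% of all genes) and none was lower (against 1.78%). Ube2c, a ubiquitin conjugating enzyme of mitotic exit, averaged 1850, 174, 61.7 and 865 CPM against 9.85 to 26.1 CPM in the other cells, and had UMIs in 39 cells, of which 38 had at least 3 erythroid markers. Mki67 or Top2a, both expressed in dividing cells, had a UMI in 7 of 182 globin-high cells (3.85%) and in 4.61% of the other cells. The 3 cells with most of them held 83.8% of these UMIs. The shares of cells with Mki67 or Top2a were not brought to equal depth. Median depth was 465.5 non-globin UMIs in the globin-high cells and 1505.5 in the others, so the shares do not compare cycling. H2afz, a histone variant abundant in dividing cells, had log2 ratios between −0.30 and 0.59.

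Malat1, a long noncoding RNA kept in the nucleus, was used to look at nuclear RNA. It had a UMI in 151 of the 182 cells and none in 31. Over all globin-high cells it stood at 20035 CPM of pooled non-globin UMIs, against 21291 CPM in the other cells. The mean level by set was 42556, 12372, 15202 and 9031 CPM, against 26427, 9517, 13864 and 31836 CPM, so set 4 alone lay under the other cells, with a log2 ratio of −1.82. The 31 cells without Malat1 had a median of 361 non-globin UMIs and 9015 globin UMIs per 10000. Of these, 29 had at least 1 erythroid marker and 20 had at least 3. Their Alas2 level was 21202 CPM, against 4375 CPM in the 151 cells with Malat1, and ribosomal protein genes took 15.7% of their non-globin UMIs against 25.2%. With a median of 576 non-globin UMIs in the cells with Malat1, depth differed between these groups, and its part was not tested.

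The globin-high cells were also split by globin share, the value that the rule used, so this split is a description only. The 51 cells with 2000 to 5000 globin UMIs per 10000 had a median of 1577 non-globin UMIs, and 8 of them had at least 3 markers. The 131 cells with at least 5000 had a median of 413 non-globin UMIs, and 88 had at least 3 markers. The 7 markers summed to 1278 CPM in the first group and 27283 CPM in the second. In sets 2 and 3 the sum was 694 and 656 CPM in the first group and 3624 and 6203 CPM in the second, whereas in set 4 it was 2115 and 35213 CPM. Set 1 had 2 cells in the first group, and the second group held 21, 11, 15 and 84 cells of sets 1 to 4. Marker levels are per non-globin UMI, of which a cell of the second group had fewer, and the part of this was not tested.

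By the number of markers, cells with at least 3 had a median globin share of 89.6% and 5547.5 UMIs, those with 1 or 2 had 54.9% and 2562.5 UMIs, and those with none had 40.7% and 1056.5 UMIs. The cells without a marker also had the fewest non-globin UMIs, with a median of 373.5, and the part of depth in the lack of markers was not tested. Neutrophil markers took 15937 CPM of their pooled non-globin UMIs and 17133 CPM in the cells with at least 3 markers. Only 1 and 3 cells of these groups lay over the median of the cells defined by neutrophil markers. In the cells with at least 3 erythroid markers the sum was 52107, 0, 6901 and 402 CPM in sets 1 to 4.

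Genes outside all lists were ranked by the ratio in their lowest set, among those averaging at least 100 CPM in the globin-high cells. The first 10 were Rec114, Cdr2, Isca1, March2, Slc25a51, Ccndbp1, Sec61g, Fam220a, Mpc2 and Rnf10, of which Rnf10 just missed the 2-fold rule, with a log2 ratio of 0.99 in its lowest set. Rec114, known for its part in meiotic recombination, averaged 653, 430, 110 and 686 CPM against 0.616, 1.89, 1.22 and 1.21 CPM in the other cells, from 57 UMIs in 32 cells. Isca1, of iron-sulphur cluster assembly, averaged 921, 332, 214 and 1040 CPM against 36.3 to 52.1 CPM. Sec61g, a subunit of the endoplasmic reticulum translocon, had 735 UMIs in 140 cells and averaged 4351, 1783, 1630 and 9803 CPM against 533 to 787 CPM.

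Slc25a51, the mitochondrial NAD carrier, had log2 ratios from 1.58 to 3.10, and March2, a membrane-bound ubiquitin ligase, from 1.60 to 4.66. Mpc2, a subunit of the mitochondrial pyruvate carrier, had log2 ratios of up to 1.91, and its median of 1.45 became −0.58 with globin kept in the total. Rnf10 reached 0.99 in its lowest set and was not called. Cdr2, Ccndbp1 and Fam220a had median log2 ratios of 3.22, 2.88 and 4.41.

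The genes that were lower in every set rested on few molecules. Of the 97, 4 were the lineage genes of the rule, 94 had under 20 UMIs in the globin-high cells, and the largest number was 48. Among them were endothelial genes (Pecam1, Cdh5, Stab2 and Eng beside Kdr), B cell genes (Cd79b and Ighd beside Cd79a) and Gzma of cytotoxic lymphocytes beside Cd3e, all named after their values were seen. The rule removed cells with its lineage genes from the globin-high cells only, so it partly set these low levels. None of the erythroid, iron, cell cycle or nuclear lists held a gene that was lower in every set, where 1.78% of all genes were.

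Markers of other cell types were present in the globin-high cells to different degrees. Hepatocyte markers had the highest summed level over all sets together. Of the 24, 23 passed the filter, and none was called higher (against 0.441% of all genes) or lower (against 1.78%). Their median was 0.78, against −0.46 for all genes. Their summed level was 8476, 39562, 34088 and 43010 CPM of pooled non-globin UMIs in sets 1 to 4, against 17206, 60042, 14742 and 29254 CPM in the other cells. Alb, the serum albumin gene, averaged 4565, 8611, 1986 and 14475 CPM against 4752, 6424, 1096 and 4233 CPM, and was highest in set 4. In 102 of the 182 cells the hepatocyte sum lay over the median of the cells defined by these markers, and 89 of the 102 were in set 4. That median was 22883 CPM over 5009 cells. With a median of 377 non-globin UMIs per globin-high cell in set 4, few UMIs place a cell over it. The count therefore does not show hepatocyte identity, and the part of depth in it was not tested. The part of the hepatocyte markers in the values of set 4 was not tested.

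Neutrophil markers had a higher sum in the globin-high cells than in the others in sets 1 to 3 and a lower one in set 4. Their sum was 50070, 5425, 2540 and 971 CPM in sets 1 to 4, against 25985, 1909, 1201 and 2185 CPM in the other cells. The median log2 ratio over the 9 neutrophil genes that passed was −0.46, the same as that of all genes. By set it was 0.24, −1.48, 2.06 and −1.63, so the sum and the median went opposite ways in set 2. None of the 9 was called higher (against 0.441% of all genes) or lower (against 1.78%). S100a8, a neutrophil calcium-binding protein, had log2 ratios of 0.78, 2.21, 1.56 and −2.79. It averaged 22937 CPM in set 1 with a median cell at 218 CPM, so that few cells carried most of it. A single cell held 38.2% of all neutrophil marker UMIs. Elane, which marks neutrophil precursors, had no UMI. Their part in the values of sets 1 to 3 was not tested.

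B cell, T cell, macrophage and endothelial markers had medians of −1.46, −1.17, −0.65 and −2.39. Of 13, 11, 13 and 13 genes that passed, 3, 2, 1 and 5 were lower in every set, where 1.78% of all genes were. A gene of the rule was among each of these. Cells with those genes were left out of the globin-high cells but not of the other cells. Low levels of genes expressed by the same cell types were thus partly set by the rule. Endothelial markers summed to 119 to 891 CPM over the sets against 642 to 3606 CPM in the other cells. B cell markers summed to 2659 to 16573 CPM against 30033 to 79969 CPM, and Igkc, the kappa light chain of antibodies, had a UMI in 158 of the 182 cells. Macrophage markers summed to 1258 to 3805 CPM against 1829 to 12701 CPM. T and NK cell markers summed to 340 to 4131 CPM against 1632 to 5427 CPM. Epithelial and duct markers had a median of −0.07 over 5 genes, with Krt7 and Cldn4 at 0 UMIs.

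Platelet markers, which could come with the megakaryocyte branch that shares a progenitor with red cells, had 41 UMIs in all, and 1 cell of set 2 held 90.2% of them. Itga2b, Gp1bb, Gp1ba, Gp6 and Treml1 were at 0. Mast cell and basophil markers had 14 UMIs, all of Hdc, and Mcpt8, Cpa3 and Fcer1a were at 0. Stellate and fibroblast markers had 9 UMIs, with Col1a1, Col3a1, Lrat, Pdgfrb, Des and Lum at 0. In all, 70 of the 182 cells were over the class median of no other list, and 32 of these 70 had at least 3 erythroid markers. This count includes the hepatocyte median, which few UMIs can pass in a cell of low depth.

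**Figure D5:**
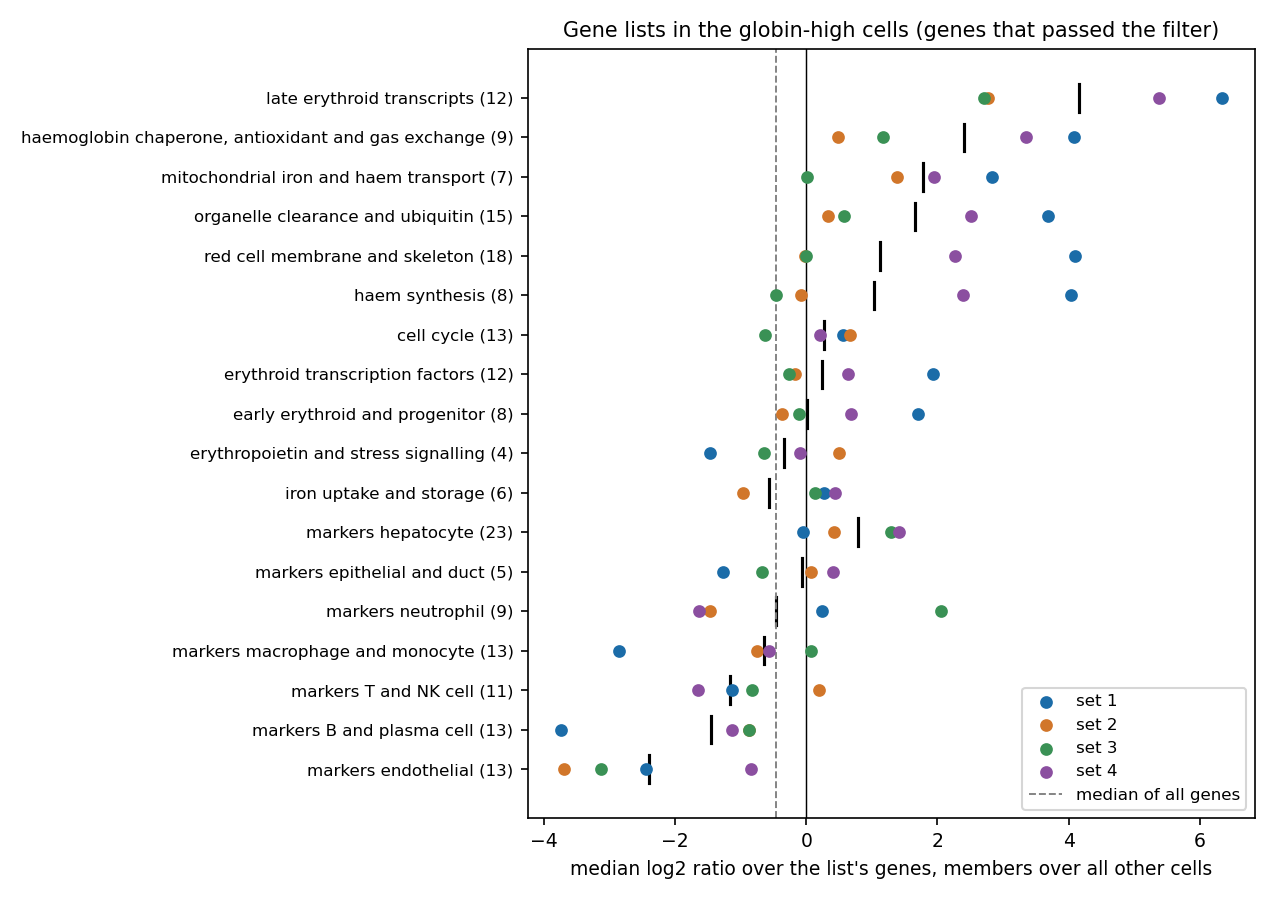
Median log2 ratio over the genes of each list that passed the filter (number in brackets), globin-high cells over all other cells, with 1 point per barcode set and a black bar for the median over genes of each gene's median over sets. The dashed line is the median of all genes at −0.46; late erythroid transcripts reach 4.16, the hepatocyte markers 0.78 and the endothelial markers −2.39, and the erythroid lists are higher in sets 1 and 4 than in sets 2 and 3.

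Zbtb17, which encodes Miz1, the protein the study deleted, had no UMI in the globin-high cells. That count allows up to 71.2, 101.1, 47.6 and 30.0 CPM of their non-globin UMIs in sets 1 to 4. The other cells had 6.33, 13.4, 9.74 and 6.12 CPM in these sets, so no difference was detectable at this depth. Barcodes were also compared between sets. Over all cells, 373 barcodes occurred in more than 1 set. Of the globin-high cells, 7 shared a barcode with a cell of another set, and none of those other cells passed the globin threshold.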

How the data were processed

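Single-cell RNA was measured with the 10x Genomics Single Cell 3' v2 kit, per the labels' protocols. Reads were handled with CASAVA 1.8, Cell Ranger and Seurat on the mm10 mouse genome, per the submitters' processing notes; no source used here gives further versions, cell filters or strand settings. Per the values in the deposited table, each entry is a natural log of 1 plus a gene's UMIs per 10000 UMIs of its cell. Turned back, they sum to 10000 in each cell, and every value was a whole multiple of the cell's smallest within 0.001. Whole UMIs were computed from these multiples. The table held 17813 genes and 65920312 UMIs, from 9093921 to 35033778 per barcode set, and the fewest genes in a cell were 201.

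The members and gene lists were chosen with earlier results of these data known. Globin UMIs were taken out of the total before levels were computed. A level in a set is the mean over cells of CPM, compared in sets with at least 20 members, with 10 CPM added and genes of at least 20 CPM in the mean of both levels kept. A list median is the median over genes of each gene's median over sets. Genes named are all adult globins, all haem synthesis genes, Malat1, Zbtb17, the 4 most abundant of each other list and 10 genes outside all lists; exceptions are marked in the text. Some genes that the rule names are summarised only by their list or are not reported here. Marker shares at equal depth are expected values for 190 non-globin UMIs per cell. Cells that could be doublets were neither called nor removed. Exact binomial intervals, and the limit of 3 UMIs for a count of 0, cover counting error only. Alternatives were other scalings, added constants, filters, thresholds, reference cells and left-out sets. GENCODE vM21 held 17545 of the 17813 symbols (98.5%). Python 3.11.15, numpy 2.4.6, scipy 1.17.1, pandas 2.3.3 and matplotlib 3.10.9 were used, and the gene-level code was tested on simulated data.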

Additional observations from a re-analysis of the deposited data

Results flagged for a closer look

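Outside the globin-high cells, 39 cells had at least 3 of the 7 erythroid markers. They drew attention because the rule leaves them out although they carry the markers that it does not use. Of these, 37 were among the 94 cells past the globin threshold with a lineage gene, and 2 lay between 1000 and 2000 globin UMIs per 10000. None of the 24496 cells under 1000 had 3 markers. By set, the share of left-out cells with at least 3 markers was 63.6%, 11.1%, 17.6% and 52.1%, with sets 1 and 4 highest as among the 182 cells. Their median of 1091 non-globin UMIs was above the 465.5 of the globin-high cells, and doublets were not called.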

How the results depend on the processing

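The number of cells was 276 with no condition on lineage genes, 53 with at least 500 genes and 5 when Alb, Ptprc, S100a8, Igkc and Krt8 also had to be 0; the last pair left no set with 20 cells and so gave no gene levels. The counts of genes higher and lower in every set depended on the number of sets and on the scale. Genes higher numbered 10 with globin in the total, 69 and 305 at thresholds of 3000 and 5000 (3 and 2 sets left), 46 against 4 classes weighted equally, 43 with the median set to 0, and 34 to 61 with 1 set left out. The choices added after the data were seen gave 273 (sets 2 and 3 left out) and 56 (at least 400 non-globin UMIs). Genes lower numbered 55 with pooled UMIs, 901 with globin in the total, 8 with 50 CPM added, 292 without a filter, 8 at 100 CPM, 200 and 605 at the higher thresholds, 203 against 4 classes, 20 with the median set to 0, 151 to 241 with 1 set left out, and 511 and 217 under the added choices. Fewer sets make the rule of every set easier to meet; the other causes were not tested.

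The haem synthesis median of 1.03 was 3.32 at 5000, 3.25 without sets 2 and 3, 3.15 with 400 UMIs, 2.75 at 100 CPM, 2.57 at 3000, 1.56 with 1 CPM added and 0.62 with globin in the total. With 1 set left out it was 0.54 to 2.44, lowest without set 4. The membrane median of 1.12 was 3.32 at 100 CPM, 3.15 at 5000, 3.16 with 400 UMIs, and 0 to 2.42 with 1 set left out, with 0 when set 4 was. The late erythroid median of 4.16 was 1.76 with globin in the total and 6.06 at 5000. Globin in the total turned the medians for mitochondrial transport (−0.70) and organelle clearance (−0.41), and Iscu (−0.70), Ubb (−0.62), Apoa1 (−0.49), S100a8 (−0.29) and Mpc2 (−0.58). S100a8, S100a9 and Retnlg turned at 5000 (−1.12, −0.66 and −1.16) and without sets 2 and 3 (−1.001, −0.48 and −0.94). Uros was −0.44 with 400 UMIs, and Hbq1b was 0 without set 1 or set 4 and at most 4.34 with another set left out. No paired analysis was possible because cells are not mapped to samples. The median of 465.5 non-globin UMIs per cell limits what can be seen of rare transcripts such as Gata1.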
